A study of Mus musculus with 6 samples.

Results

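The genes described here build and police the folding machinery of the endoplasmic reticulum (ER) in mouse liver. They number 34, chosen by name as the chaperones, disulfide isomerases, stress sensors, degradation factors and transport components of the ER, and each was found by matching its symbol to the Ensembl identifiers of the deposited tables. All 34 of 34 matched among 56847 gene identifiers, and all 34 passed the filter on low counts, which 14215 genes passed in all. Liver RNA was sequenced from mice on a normal diet (3 libraries) and from mice on CDAHFD (3 libraries), a high-fat diet that lacks choline and has defined amino acids, on which rodents develop fatty liver with inflammation and scarring. According to the series' design text, the study set out to examine pathways of lipid metabolism and mitochondrial function, so the ER genes were not its stated object. The labels give the tissue and the diet of each library but no strain, genotype, sex, age or time on the diet, and they do not say whether each library came from a separate animal. The p-values below therefore measure the spread between these libraries, which may be technical.

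Secreted and membrane proteins enter the ER through the Sec61 channel, are folded there by chaperones and disulfide isomerases, and leave in COPII-coated vesicles, while proteins that fail to fold are drawn back out and degraded. When unfolded proteins build up, the membrane sensors IRE1 (gene Ern1), PERK (Eif2ak3) and ATF6 start the unfolded protein response. IRE1 splices the mRNA of the transcription factor XBP1, ATF6 is cut to release a transcription factor, and PERK slows translation and favours that of ATF4. Hepatocytes secrete most plasma proteins and hold a large rough ER, so the folding genes are among the better expressed genes of the liver.

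Total counts ran from 21986215 to 25628531 per library, which leaves little counting error for most of the 34 genes. Levels are given as CPM, the library's count scaled to a common total with TMM (trimmed mean of M-values, which assumes that most genes do not change), and changes as log2 fold changes, CDAHFD over normal diet, ± their standard error, with 3 libraries per diet, and a level with ± is a mean with its SD. Adjusted p-values come from edgeR's quasi-likelihood test over all 14215 genes with Benjamini-Hochberg adjustment, and a gene counts as higher or lower, or is said to have risen or fallen, below 0.05. TMM factors of the normal diet libraries (0.877 to 0.907) lay below those of the CDAHFD libraries (1.09 to 1.14), so the scaling bears on every change. Results are therefore also given with total counts alone, which moved the median of all genes up by 0.32 on the log2 scale, with scaling to the median of 18 hepatocyte marker genes, which moved it up by 0.60, and on log2(TPM + 1), which moved it up by 0.28. Hepatocyte markers fell with TMM (14 of 18 lower, 1 higher, median -0.67). The scaling to them therefore shows only how the ER genes stood relative to the median of these 18 markers. The markers themselves changed with the diet, and not all in the same direction. How much of the RNA of each ER gene came from hepatocytes was not tested. In bulk liver, fewer hepatocytes and less RNA per hepatocyte cannot be told apart.

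Several of these genes carry a known DNA element of the unfolded protein response before their start. The ER stress element (ERSE) reads CCAAT, any 9 bases, then CCACG, and is bound by NF-Y together with ATF6 or XBP1. Its shorter relative ERSE-II reads ATTGG, 1 base, then CCACG. RefSeq promoter sequences (GRCm38.p6) matched 29 of the 34 genes by symbol, all but Sec61a1, Atf6, Derl1, Manf and Hyou1, and the 250 bases before the start were searched on both strands. ERSE was present in 9 of 29 genes (31.0%) against 35 of 27025 genes with a promoter in the table (0.130%), and in 0.113% of 32851 promoters. ERSE-II was present in Herpud1 alone of the 29, against 0.0370% of all genes. The genes were chosen by name for ER folding and the unfolded protein response, so these shares are no independent result and were not tested. The 2 elements are distinct strings that can share the CCACG letters, and no gene of the 29 held both. The 4 stretches below belong to the genes with an element that changed most between the diets, and show how the element lies in each. Each is on the strand of its gene, with the element in capitals and 20 bases to either side, and on the opposite strand ERSE appears as CGTGG, 9 bases, ATTGG.
Herpud1, chr8:94386357-94386407, plus strand: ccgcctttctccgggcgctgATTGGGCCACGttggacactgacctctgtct
Creld2, chr15:88819500-88819558, plus strand: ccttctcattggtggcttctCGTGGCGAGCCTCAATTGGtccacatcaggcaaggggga
Hsp90b1, chr10:86705513-86705676, minus strand: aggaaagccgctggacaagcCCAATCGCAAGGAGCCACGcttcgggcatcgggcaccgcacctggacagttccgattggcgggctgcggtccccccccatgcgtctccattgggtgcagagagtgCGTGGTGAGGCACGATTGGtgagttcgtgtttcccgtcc
Hspa5, chr2:34772005-34772063, plus strand: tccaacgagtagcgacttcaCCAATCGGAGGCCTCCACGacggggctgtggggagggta

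The ERSE-II of Herpud1 lay 52 to 42 bases before the start. Hsp90b1 held 2 ERSEs in opposite orientation, and the other 8 genes with ERSE held 1 each. The ERSE of Hspa5 ended 47 bases before the start, and that of Syvn1, the nearest, ended 26 bases before it. Of the 10 genes with either element, 7 were lower on CDAHFD, 0 were higher and 3 did not pass the test with TMM, with a median change of -0.48, where 23.5% of all genes tested were lower and 28.5% higher. Of the 19 genes without one, 10 were lower, 4 were higher and 5 did not pass, with a median of -0.39. With total counts, 4 of the 10 were lower and 1 higher, against 4 and 6 of the 19, and with hepatocyte marker scaling 3 and 3 of the 10, against 0 and 9 of the 19. Shares of all genes, lower and higher, were 8.07% and 44.0% with total counts, and 3.31% and 61.7% with hepatocyte marker scaling. All 4 genes that rose with TMM have a promoter in the table and no such element in this window, and the difference between the 2 medians was not tested. The UPRE, TGACGTGG, a site bound by XBP1 and ATF6, was found in Sec24d alone (3.45% of the 29 genes against 0.603% of all genes). The CARE element bound by ATF4, TGATG, 1 base, then AA, was found in Herpud1 alone, against 3.91% of all genes. A match is a description of the letters and not a measured binding site.

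**Figure D1:**
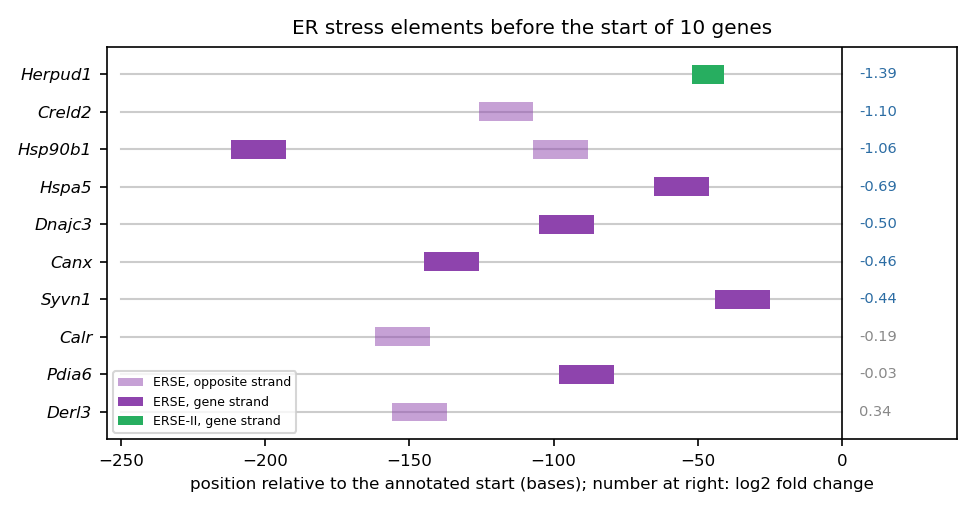
Each row is 1 of the 10 genes with an ER stress element, and bars mark where ERSE (purple) or ERSE-II (green) lies in the 250 bases before the annotated start, full colour on the gene's strand and pale on the opposite strand. The number at the right is the log2 fold change with TMM, blue where the gene was lower and grey where it did not pass. Herpud1 holds the ERSE-II and the largest fall, -1.39, while Pdia6, Calr and Derl3 hold an ERSE and did not pass.

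Under TMM scaling, most of the ER folding and stress genes were lower on CDAHFD, and a small group rose. This majority was not kept with total counts (9 lower, 9 higher) or with hepatocyte marker scaling (3 lower, 14 higher). With TMM, 20 of 34 genes were lower (58.8%, where 23.5% of all genes tested were lower), 4 were higher (11.8%, where 28.5% of all genes were higher) and 10 did not pass. In CPM scaled by TMM, the diets' libraries did not overlap for 21 genes lower on CDAHFD (28.4% of all genes) and 4 higher (32.2% of all genes). This count depends on the scaling as the calls do, and it was not repeated under the other scalings. The falls were led by Herpud1, Creld2 and Hsp90b1, the only 3 genes called with a change of at least 2-fold, and the rises by Edem2, Dnajc10, Sec61b and P4hb, all under 2-fold. The median change of the 34 genes was -0.41, against 0.01 for all genes, and 25 of the 34 lay below the median of all genes. No list test was made, because the genes were chosen with earlier results of these data known.

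**Figure D2:**
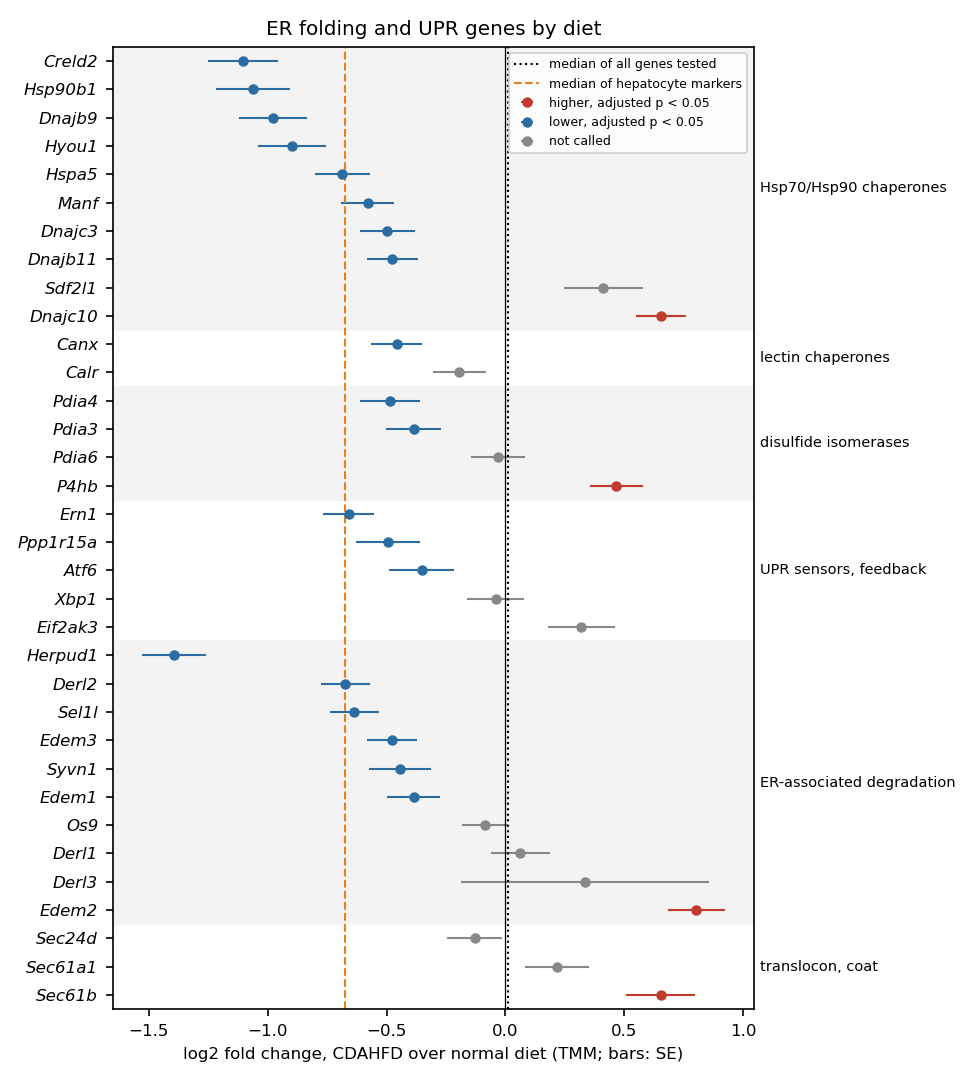
Points give the log2 fold change with TMM, CDAHFD against normal diet, and bars are standard errors, for the 34 genes grouped by role, with lower genes in blue, higher in red and the rest in grey. Most points lie to the left of 0, and the dashed line marks the hepatocyte marker median of -0.67, beyond which 7 of the 34 genes lie.

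How many of these genes counted as lower depended on the scaling. With total counts, 9 were higher and 9 lower, where 44.0% and 8.07% of all genes were. With the hepatocyte marker scaling, 14 were higher and 3 lower, where 61.7% and 3.31% of all genes were. On log2(TPM + 1), 11 were higher and 7 lower, where 45.4% and 6.31% of all genes were. The median of the 34 genes moved from -0.41 with TMM to -0.09, 0.19 and -0.05 in the same order. Its distance from the median of all genes was -0.43 with TMM and -0.34 on log2(TPM + 1). With total counts and with hepatocyte marker scaling the distance is nearly fixed by construction, since each shifts all genes by about the same amount. The calls of 7 genes held under all 17 alternative settings tried, with Herpud1, Creld2 and Hsp90b1 lower and Edem2, Dnajc10, Sec61b and P4hb higher. Hspa5, Hyou1, Dnajb9 and Derl2 lost their lower call with the hepatocyte marker scaling alone, with values of -0.08, -0.29, -0.37 and -0.08 under it.

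**Figure D3:**
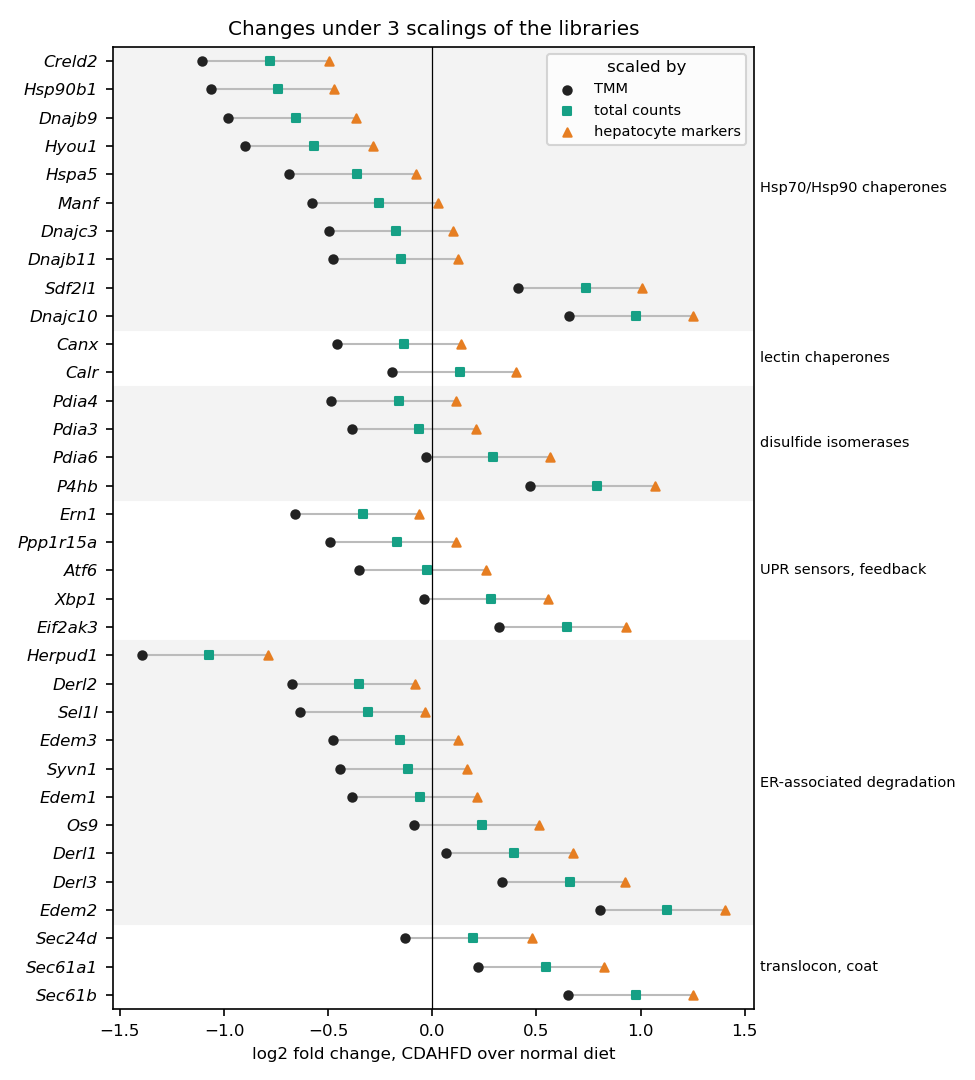
For each of the 34 genes, the log2 fold change of CDAHFD over normal diet is shown with TMM (circles), total counts (squares) and scaling to hepatocyte markers (triangles). Each alternative shifts every gene to the right by a similar amount, and Herpud1, Creld2 and Hsp90b1 stay to the left of 0 past the test in all 3, while 16 genes change sign with the hepatocyte markers.

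Among the 10 ER Hsp70 and Hsp90 chaperones and their co-factors, 8 were lower and 1 was higher (5 and 2 with total counts, 2 and 2 with hepatocyte marker scaling), with a median of -0.63. Shares of all genes, lower and higher, were 23.5% and 28.5% with TMM. They were 8.07% and 44.0% with total counts, and 3.31% and 61.7% with hepatocyte marker scaling. Hspa5 encodes BiP, the ER Hsp70 that binds unfolded chains and holds the stress sensors inactive, and it stood at 697, 617 and 679 CPM on normal diet and at 441, 366 and 432 CPM on CDAHFD. All 3 CDAHFD libraries lay below all 3 normal diet libraries, and the change was -0.69 ± 0.12 (adjusted p = 0.000503), which shrank to -0.36 with total counts and to -0.08, no longer called, with the hepatocyte markers. Hsp90b1, the ER Hsp90 known as GRP94, stood at 527, 631 and 401 CPM and at 239, 275 and 233 CPM. The normal diet libraries varied more than the CDAHFD libraries but did not overlap them, with a change of -1.06 ± 0.16 (adjusted p = 0.000192), and -0.47 with the hepatocyte markers was still called. Creld2, a secreted ER stress protein with disulfide isomerase motifs, stood at 65.5, 42.7 and 51.7 CPM on normal diet and at 23.6, 24.8 and 26 CPM on CDAHFD. It fell by 1.10 on the log2 scale (SE 0.15, adjusted p = 8.74e-05), about 2.15-fold, and by 0.50 with the hepatocyte markers.

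The nucleotide exchange factor Hyou1 and the J-domain protein Dnajb9, which both serve BiP, also fell with TMM and with total counts, calls that were lost with the hepatocyte markers. Hyou1 stood at 199.7, 152 and 202 CPM and at 104, 83.8 and 110 CPM, a change of -0.90 ± 0.14 (-0.29 with the hepatocyte markers). Dnajb9 stood at 97.6, 96.2 and 108 CPM and at 62.8, 41.6 and 48.6 CPM, a change of -0.98 ± 0.14 (-0.37 with the hepatocyte markers). In both genes the libraries of the diets did not overlap. Dnajb11 (-0.48 ± 0.11), Dnajc3 (-0.50 ± 0.12) and Manf (-0.58 ± 0.11) were lower with TMM only among the scalings named above, and were at 0.12, 0.10 and 0.03 with the hepatocyte markers. Dnajb11 and Dnajc3 are further J-domain partners of BiP, and Manf is a secreted protein of the ER stress response.

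Another J-domain protein went the other way. Dnajc10, also called ERdj5, joins a J domain to thioredoxin domains and reduces disulfides in proteins bound for degradation, and it stood at 40.3, 47.8 and 45.2 CPM on normal diet and at 69.8, 66.6 and 73.3 CPM on CDAHFD. The groups lay well apart, with a rise of 0.65 ± 0.10 (adjusted p = 0.000332) that was larger with total counts (0.98) and hepatocyte marker scaling (1.25). Sdf2l1, which works with BiP and Dnajb11, had a change of 0.41 ± 0.17 and an adjusted p of 0.0562, and its normal diet values of 28.3, 18.7 and 26.3 CPM overlapped the CDAHFD values of 26.6, 35.7 and 35.2 CPM. It passed the test without normal diet replicate 1 (0.52) and without CDAHFD replicate 1 (0.50), and with total counts (0.74).

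**Figure D4:**
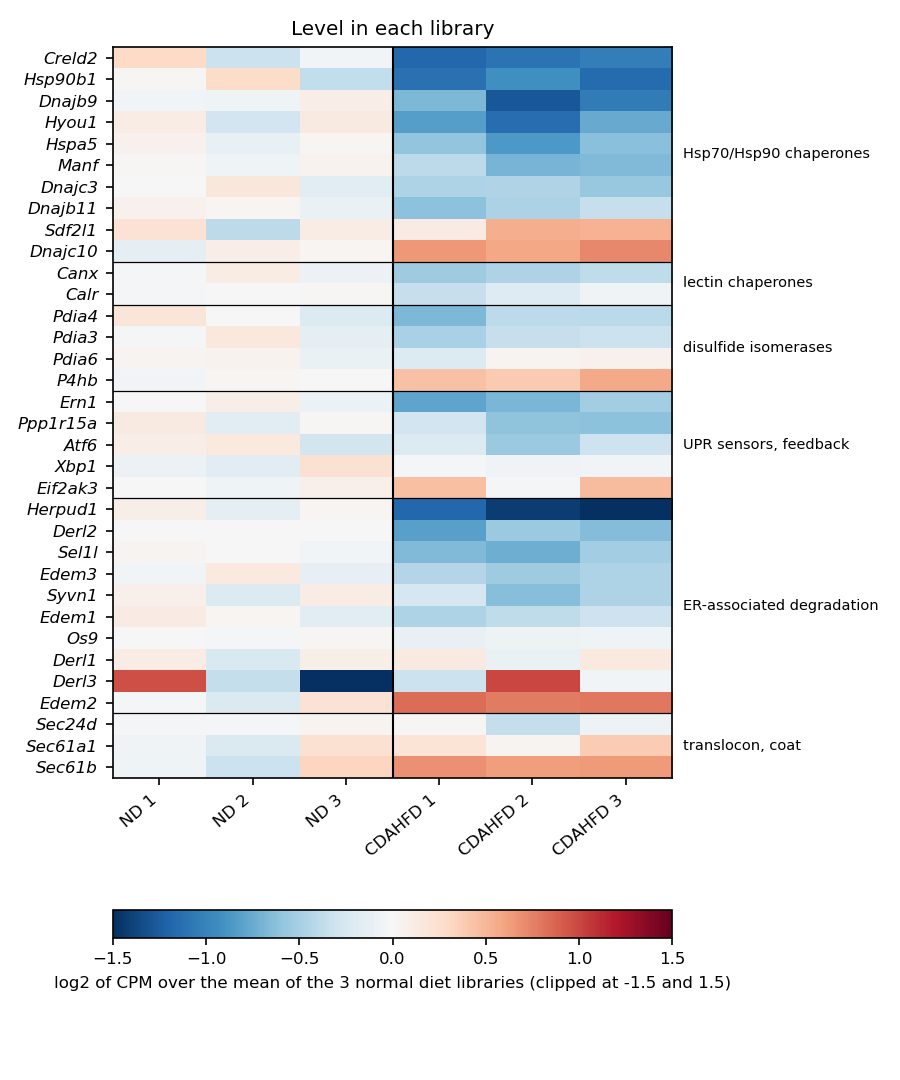
Colour gives the log2 of each library's CPM over the mean of the 3 normal diet libraries, for the 34 genes in rows by role and the 6 libraries in columns (ND is normal diet), clipped at the ends of the colour scale. Within a diet the libraries are alike for most genes, and the blue rows of Herpud1, Creld2, Hsp90b1 and Dnajb9 and the red rows of Edem2, Dnajc10 and Sec61b run through all 3 CDAHFD libraries.

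The lectin chaperones calreticulin (Calr) and calnexin (Canx) hold glycoproteins by their glucose-tagged sugar chains. Canx was lower with TMM (-0.46 ± 0.11, adjusted p = 0.00418) but not with total counts (-0.13) or the hepatocyte markers (0.14). Calr, with -0.19 ± 0.11, did not pass the test with TMM (adjusted p = 0.175), although its CDAHFD values of 715, 794 and 871 CPM all lay below its normal diet values of 886, 912 and 921 CPM. In TPM the diets overlapped, at 724 to 810 on normal diet and 781 to 968 on CDAHFD. With the hepatocyte markers Calr was called higher (0.40).

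The 4 disulfide isomerases split. P4hb, the abundant isomerase PDI that is also the beta subunit of the collagen prolyl 4-hydroxylase and a subunit of the microsomal triglyceride transfer protein complex, stood at 1487, 1558 and 1534 CPM on normal diet and at 2063, 2006 and 2260 CPM on CDAHFD. Every CDAHFD library exceeded every normal diet library, a rise of 0.47 ± 0.11 (adjusted p = 0.00459) that reached 0.79 with total counts and 1.07 with hepatocyte marker scaling. Pdia3, the partner of the lectin chaperones, and Pdia4 were lower with TMM (-0.39 ± 0.12 and -0.49 ± 0.13) but not with total counts (-0.06 and -0.16), and lay above 0 with the hepatocyte markers (0.21 and 0.11). Pdia6 had a change of -0.03 ± 0.11 with TMM (adjusted p = 0.838). It was called higher with total counts (0.29), on log2(TPM + 1) (0.33) and with the hepatocyte markers (0.56).

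Among the 5 sensors and feedback factors, 3 were lower and 0 higher with TMM (1 and 1 with total counts, 0 and 2 with hepatocyte marker scaling). Shares of all genes, lower and higher, were 23.5% and 28.5% with TMM. They were 8.07% and 44.0% with total counts, and 3.31% and 61.7% with hepatocyte marker scaling. Ern1, which encodes IRE1, stood at 82.4, 86.9 and 77 CPM on normal diet and at 47.6, 50.9 and 57.4 CPM on CDAHFD. The diets did not overlap in CPM, but in TPM they did, at 22.2 to 27.2 on normal diet and 18.3 to 22.5 on CDAHFD. The change of -0.66 ± 0.11 (adjusted p = 0.000393) was also called with total counts (-0.34) but not on log2(TPM + 1) (-0.28) or with the hepatocyte markers (-0.06). Xbp1, the splicing target of IRE1, stood at 202, 191 and 253 CPM and at 211, 208 and 210 CPM, a change of -0.04 ± 0.12 (adjusted p = 0.799), and these CPM values overlapped. Xbp1 was called higher on log2(TPM + 1) (0.33) and with the hepatocyte markers (0.56), but not with total counts (0.28). Counts per gene do not separate the spliced from the unspliced Xbp1 mRNA, so IRE1 activity was not measured.

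Atf6 was at the edge of the test (-0.35 ± 0.14, adjusted p = 0.047), and its libraries overlapped, at 151, 156 and 117 CPM on normal diet and at 122, 95.9 and 113 CPM on CDAHFD. Its call was lost with total counts and on log2(TPM + 1), with the stricter filter, and without each of 4 libraries in turn, normal diet replicates 1 and 2 and CDAHFD replicates 2 and 3, and its sign turned with the hepatocyte markers (0.26). Eif2ak3, which encodes PERK, stood at 21.5, 20.7 and 22.7 CPM and at 29.6, 21.3 and 30 CPM, and did not pass with TMM (0.32 ± 0.14, adjusted p = 0.0761). CDAHFD replicate 2 alone overlapped the normal diet libraries in CPM, and without it the change of 0.43 was called. With all libraries, Eif2ak3 was called higher with total counts (0.65), on log2(TPM + 1) (0.62) and with the hepatocyte markers (0.93). Ppp1r15a, the GADD34 subunit that reverses the translational block set by PERK, was lower with TMM (-0.49 ± 0.13, adjusted p = 0.00972), was not called with total counts (-0.17), and lay above 0 with the hepatocyte markers (0.11).

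The degradation genes held both the largest fall and the largest rise of the 34. Of these 10 genes 6 were lower and 1 was higher with TMM, 3 and 2 with total counts, and 1 and 4 with the hepatocyte markers. Shares of all genes, lower and higher, were 23.5% and 28.5% with TMM. They were 8.07% and 44.0% with total counts, and 3.31% and 61.7% with the hepatocyte markers. Herpud1, a membrane protein that organises the Hrd1 ubiquitin ligase complex and is a standard marker of ER stress, stood at 1047, 895 and 1006 CPM on normal diet and at 436, 365 and 321 CPM on CDAHFD. In these CPM, every normal diet library held over 2 times the level of every CDAHFD library. In TPM the gap was smaller, at 981 to 1056 on normal diet and 440 to 587 on CDAHFD. The change of -1.39 ± 0.13 (adjusted p = 8.05e-06) was -1.07 with total counts and -0.79 with hepatocyte marker scaling. Sel1l, the scaffold of the same complex, stood at 207, 201 and 197 CPM and at 127, 121 and 141 CPM (-0.64 ± 0.10), and the ligase itself, Syvn1, had -0.44 ± 0.13. Both were lower with TMM and Sel1l also with total counts (-0.31), but neither on log2(TPM + 1) (-0.27 and -0.08) nor with the hepatocyte markers (-0.03 and 0.17).

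The 3 derlins, channel proteins for the outward passage of misfolded proteins, differed among themselves. Derl2 stood at 77.1, 77.4 and 77.7 CPM on normal diet and at 43.9, 52.5 and 49.1 CPM on CDAHFD, a change of -0.67 ± 0.10 that was called with total counts (-0.35) but not with the hepatocyte markers (-0.08). Derl1 stood at 169, 133 and 165 CPM and at 170.5, 146 and 172 CPM, a change of 0.06 ± 0.12 (adjusted p = 0.689). Derl1 was called higher with total counts (0.39), on log2(TPM + 1) (0.43) and with the hepatocyte markers (0.67). Derl3, the least abundant of the 34, varied more within a diet than between them, at 11.1, 4.41 and 1.55 CPM and at 4.54, 11.4 and 5.5 CPM (0.34 ± 0.52, adjusted p = 0.617). Without normal diet replicate 1 its change was 1.25 and was called.

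The mannose-trimming genes of the EDEM family also moved apart. Edem2, which makes the first cut that marks a glycoprotein for degradation, stood at 65.2, 57 and 77 CPM on normal diet and at 119, 114 and 115 CPM on CDAHFD. It rose by 0.80 ± 0.12 (adjusted p = 0.000212), the largest rise among the 34 genes, and by 1.40 with the hepatocyte markers. Edem1 (-0.39 ± 0.11) and Edem3 (-0.48 ± 0.10) were lower with TMM, were not called with total counts (-0.06 and -0.15), and lay above 0 with the hepatocyte markers (0.22 and 0.12). The Edem1 call was also lost without normal diet replicate 1 (adjusted p = 0.0589). Os9, a lectin that passes trimmed glycoproteins to the Hrd1 complex, did not pass with TMM (-0.09 ± 0.10, adjusted p = 0.484) or with total counts (0.24). It was called higher on log2(TPM + 1) (0.28) and with the hepatocyte markers (0.51).

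The entry and exit genes showed no fall that passed the test. Sec61b, the beta subunit of the translocation channel, stood at 47, 39.1 and 61.2 CPM on normal diet and at 79.1, 76.1 and 76.6 CPM on CDAHFD, a rise of 0.65 ± 0.14 (adjusted p = 0.00285). Sec61a1, the pore-forming subunit, had 0.22 ± 0.14 (adjusted p = 0.199), and Sec24d, a cargo-binding subunit of the COPII coat, had -0.13 ± 0.12 (adjusted p = 0.372), which turned to 0.20 with total counts. Sec61a1 was called higher with total counts (0.54) and on log2(TPM + 1) (0.58). With the hepatocyte markers all 3 genes were called higher, where 61.7% of all genes were.

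TPM, which corrects for gene length, allows levels to be compared between genes. Together the 34 genes held 0.624% to 0.677% of TPM on normal diet and 0.674% to 0.76% on CDAHFD, so as a share of the TPM total the libraries of CDAHFD lay at the upper edge of the normal diet range or above it. P4hb was the most abundant in both diets, at 1294 ± 88.2 TPM on normal diet and 2305 ± 209 TPM on CDAHFD (mean ± SD, n = 3). Herpud1 was the second on normal diet at 1018 ± 37.6 TPM and the third on CDAHFD at 500.1 ± 77.3 TPM, behind Calr, which stood at 763 ± 43.7 and 860.4 ± 97 TPM. The disulfide isomerases together went from 0.195% to 0.228% of TPM on normal diet to 0.293% to 0.341% on CDAHFD, mostly through P4hb, while the Hsp70 and Hsp90 group went from 0.118% to 0.137% down to 0.0977% to 0.108%. These 2 sums did not overlap between the diets. Neither did that of the degradation genes, which went from 0.164% to 0.172% down to 0.123% to 0.139%. The sensors and feedback factors went from 0.0235% to 0.0262% up to 0.0268% to 0.0299%, also without overlap. So did the entry and exit genes, from 0.0182% to 0.0228% up to 0.0302% to 0.0353%. The lectin chaperones overlapped, and none of these sums was tested. Edem2 moved from rank 24 to rank 15 among the 34 genes, and Hyou1 from rank 19 to rank 25.

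**Figure D5:**
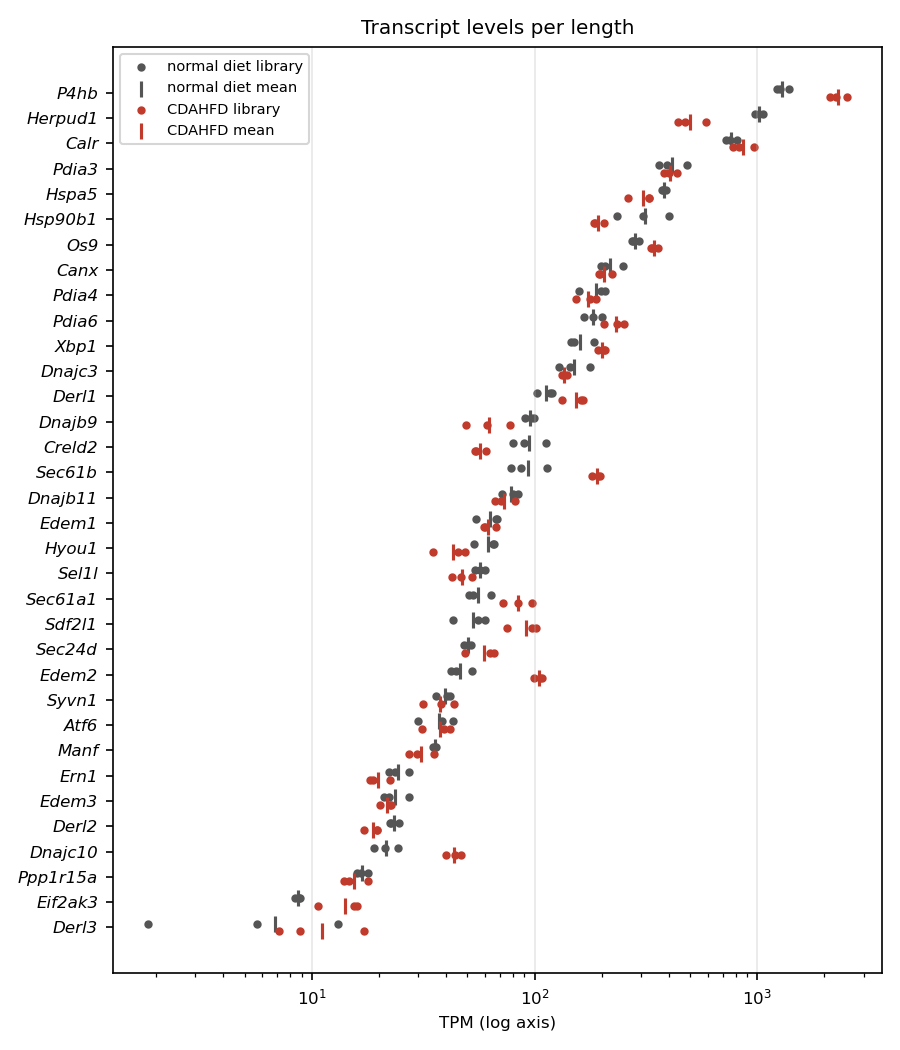
Points are TPM values of single libraries on a log axis and ticks are the mean of 3 libraries per diet, for the 34 genes in order of their normal diet level. The genes span from Derl3 at a mean of 6.85 TPM to P4hb at 1294 TPM on normal diet, and the CDAHFD points of Herpud1 lie left, and those of P4hb and Edem2 right, of the normal diet points.

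Ratios between 2 genes of 1 library do not depend on how libraries are scaled, so they show the change in proportions directly. The pairs were chosen after the values had been seen and have no test. P4hb over Hspa5, in TPM, was 3.15, 3.73 and 3.34 in the normal diet libraries and 6.92, 8.10 and 7.74 in the CDAHFD libraries. P4hb over Herpud1 went from between 1.16 and 1.42 to between 3.86 and 5.75. Within the EDEM family, Edem2 over Edem1 was 0.663, 0.622 and 0.964 in the normal diet libraries and 1.82, 1.65 and 1.59 in the CDAHFD libraries, so Edem2 passed from below Edem1 in every normal diet library to above it in every CDAHFD library. Dnajc10 over Dnajb9 went from between 0.210 and 0.253 to between 0.567 and 0.814, and Sec61b over Sec61a1 from between 1.54 and 1.77 to between 1.99 and 2.502. None of the 9 ratios computed overlapped between the diets, but the pairs were picked with their values known, so this count is no independent result.

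Beyond the 34 genes, 152 other ER genes in 7 lists were tested, of which 45 were lower (29.6%) and 21 higher (13.8%) with TMM, where 23.5% and 28.5% of all genes were. With total counts 6 were lower (3.95%) and 58 higher (38.2%), where 8.07% and 44.0% of all genes were, and with the hepatocyte markers 1 (0.658%) and 100 (65.8%), where 3.31% and 61.7% of all genes were. The share of lower calls thus lay near that of all genes with TMM and below it under both other scalings. Their median was -0.08. The lists hold the known parts of each process and were written with earlier results of these data known, so the counts of each list are read against these shares of all genes and carry no test. The genes named are the 3 of each list with the largest change that passed and a mean of at least 5 CPM, unless said otherwise. Chosen after their values were seen, 3 genes with lower levels rose further: the collagen-binding prolyl isomerase Fkbp10 (2.87), the retrieval receptor Kdelr3 (4.21) and the membrane-bound transcription factor Creb3l1 (2.30).

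Of 29 further folding and oxidation enzymes, 7 were lower (24.1%) and 4 higher (13.8%) with TMM, and 0 and 9 with total counts (31.0% higher). The prolyl isomerase Fkbp11 rose from 9.98 ± 4.01 to 26.1 ± 1.23 CPM (1.39 ± 0.23), while the ER oxidases Ero1b (-0.58 ± 0.11) and Ero1a (-0.55 ± 0.12), which recharge the disulfide isomerases, were lower with TMM and near 0 with the hepatocyte markers (0.02 and 0.05). Of 27 further degradation genes, 13 were lower (48.1%) and 0 higher with TMM, but 1 (3.70%) and 6 (22.2%) with total counts and 0 and 13 (48.1%) with the hepatocyte markers. The deglycosylating enzyme Ngly1 went from 42.3 ± 6.39 to 24.1 ± 1.94 CPM (-0.81 ± 0.13) and was not called with the hepatocyte markers (-0.22). Fam8a1, a partner of the Hrd1 complex, and the ubiquitin ligase Rnf139 each had -0.56 with TMM and 0.03 with the hepatocyte markers.

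Of 23 genes of translocation, signal peptide cleavage and signal recognition, 5 were lower (21.7%) and 1 higher (4.35%) with TMM, and 1 (4.35%) and 9 (39.1%) with total counts. The channel partners Sec63 (-0.66 ± 0.12) and Sec62 (-0.44 ± 0.13) and the signal recognition subunit Srp72 (-0.38 ± 0.10) were lower with TMM, and at -0.06, 0.15 and 0.22 with the hepatocyte markers. Of 12 matched genes of N-glycosylation, most of them subunits of the oligosaccharyltransferase, which attaches sugar chains to entering proteins, 4 were higher (33.3%) and 2 lower (16.7%) with TMM, and 9 (75%) and 0 with total counts. Ddost rose from 95.4 ± 10.5 to 141 ± 13.9 CPM (0.56 ± 0.12) under every scaling, and Krtcap2 had 0.65 ± 0.20, a call lost without normal diet replicate 1 or without CDAHFD replicate 1. Magt1 was lower with TMM (-0.53 ± 0.10) and at 0.08 with the hepatocyte markers.

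Of 27 genes of the COPII coat, its cargo receptors and retrieval from the Golgi, 10 were lower (37.0%) and 2 higher (7.41%) with TMM, 3 (11.1%) and 9 (33.3%) with total counts, and 1 (3.70%) and 17 (63.0%) with hepatocyte markers. Sar1b, the GTPase that starts COPII budding and is needed for export of lipoprotein particles, stood at 231, 214 and 187 CPM on normal diet and at 104, 110 and 102 CPM on CDAHFD. The libraries lay far apart, and the change of -1.0003 ± 0.11 (adjusted p = 2.3e-05) was still called with the hepatocyte markers (-0.40). Lman1, a receptor for glycoprotein cargo, had -0.73 ± 0.10, and Mia3, the receptor TANGO1 for bulky cargo such as collagen and lipoproteins, had -0.67 ± 0.15. Neither was called with the hepatocyte markers (-0.13 and -0.07).

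Of 20 further regulators of the unfolded protein response, 7 were lower (35%) and 4 higher (20%) with TMM, 1 (5%) and 9 (45%) with total counts, and 0 and 14 (70%) with hepatocyte markers. Atf6b, the homologue of Atf6, rose from 17.6 ± 2.46 to 31.5 ± 3.36 CPM (0.84 ± 0.13), and the apoptosis effectors Bax (1.21 ± 0.15) and Bak1 (0.80 ± 0.17), which also bind IRE1, rose under every scaling. Of 14 genes of the ATF4 and CHOP arm, 6 were higher (42.9%) and 1 lower (7.14%) with TMM. With total counts 7 were higher (50%) and with the hepatocyte markers 9 (64.3%), with 0 lower under either, where 44.0% and 61.7% of all genes were higher. The stress-induced factor Atf3 stood at 0.688, 0.588 and 0.4 CPM on normal diet and at 20.8, 19.5 and 30.4 CPM on CDAHFD (5.38 ± 0.26, adjusted p = 7.67e-08). Nupr1, a small stress-induced nuclear protein, stood at 0.884, 0.441 and 0.85 CPM and at 22.6, 14.4 and 16.4 CPM (4.61 ± 0.27), and Asns, the asparagine synthetase, at 5.4, 1.57 and 2.5 CPM and at 13.6, 16 and 16.3 CPM (2.27 ± 0.32). The factors the arm is named for, also chosen after their values were seen, did not pass with TMM. Atf4 had -0.31 ± 0.12 (adjusted p = 0.0519) at 88 and 70.7 CPM, was called lower without normal diet replicate 2 (-0.43) or CDAHFD replicate 1 (-0.42) and with RLE, no filter, DESeq2 and the replicate block, and lay at 0.01 with total counts and 0.29 with hepatocyte marker scaling. Ddit3, which encodes CHOP, had 0.21 ± 0.23 (adjusted p = 0.467) at 3.9 and 4.5 CPM, and was called higher on log2(TPM + 1) (0.51) and with the hepatocyte markers (0.80). Translation of ATF4 is not visible in mRNA counts.

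Markers of other liver cells moved with the diet. The summed TPM of 18 hepatocyte markers was 181094 to 200018 on normal diet and 190685 to 198000 on CDAHFD, with Alb alone at 92731 to 111049 and 92684 to 100752. Of these 18 markers, 14 were lower and 1, Hpx, higher with TMM, and 7 were lower and 3 higher on log2(TPM + 1), with a median of -0.31. The summed TPM of 14 macrophage markers went from 374 to 460 up to 2497 to 2720 (11 of 14 higher). Stellate cell markers went from 107 to 129 up to 641 to 774 TPM (11 of 11 tested higher), and cholangiocyte markers from 49.6 to 55.3 up to 303 to 392 TPM (6 of 6 tested higher). Spp1 stands in both the macrophage and the cholangiocyte list. Neutrophil markers went from 4.00 to 4.38 up to 44.6 to 76.8 TPM (5 of 5 tested), T and NK cell markers from 8.23 to 9.32 up to 35.5 to 54.1 TPM (9 of 11), and B cell markers from 5.28 to 5.94 up to 15.8 to 16.5 TPM (3 of 8). Endothelial markers went from 190.1 to 223 up to 281 to 322 TPM (3 of 10 higher with TMM, where 28.5% of all genes were). Plasma cells have a very large ER, and their markers went from 245 to 264 up to 458 to 663 TPM, with 8 of 10 tested genes higher and 1, Ighm, lower. The defining plasma cell genes Mzb1 and Tnfrsf17 had at most 5 counts and 1 count in any library, and Jchain stood at 4.81, 5.10 and 5.40 CPM and at 9.92, 17.9 and 9.39 CPM. Jchain was highest in CDAHFD replicate 2, the CDAHFD library in which Derl3 was also highest, at 11.4 CPM, while on normal diet Jchain was lowest in replicate 1, where Derl3 was highest at 11.1 CPM. The part of these cells in the levels of P4hb, Edem2, Dnajc10, Sec61b, Fkbp11 and the other genes was not tested.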

How the data were processed

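Poly(A) RNA of mouse liver was measured in 6 libraries, 3 per diet, from 1 µg of total RNA in a stranded ligation-based mRNA kit, per the labels' protocols. STAR 2.7.11a and the build GRCm39 are named in the submitters' processing notes, while no source used here names the counting tool, the annotation or the strand setting. The authors deposited 2 tables, of whole-number read counts and of TPM, and 0 of their per-sample columns were left unused. Columns beginning CD were read as CDAHFD and those beginning ND as normal diet, and their numbers were matched to those in the sample titles. Symbols come from a GRCm38 gene name table and promoters from RefSeq GRCm38.p6, so no coordinates in the authors' build are given. The 34 genes and all lists were chosen with earlier results of these data known.

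The filterByExpr filter (minimum count 10) kept 14215 of the 26131 genes with a count. Scaling was by TMM, and the test was run with edgeR 4.0.16 in R 4.3.3 (quasi-likelihood, diet as the only term, Benjamini-Hochberg over all genes tested, threshold 0.05). The standard error is the change divided by the root of F. The alternatives were RLE, total counts, TMM without the 20 most abundant genes, scaling to the median of the hepatocyte markers, no filter, a stricter filter of 1 CPM in 3 libraries, limma-voom (limma 3.58.1), DESeq2 1.42.0, log2(TPM + 1) and log2(TPM + 0.1) with limma, a replicate block, and leaving out each library. The pipeline was tested on simulated data in which few genes changed, evenly up and down, so that test does not bear on the scaling. All 34 genes are named, and from each other ER list the 3 passing genes with the largest absolute change whose mean reached 5 CPM, and from the marker lists the summed TPM and the first gene where it bears on a result. Libraries of 1 diet differed far beyond sampling noise (chi-square over its degrees of freedom 19.5 to 43.6), so no library looked deposited more than once. How reads shared by overlapping or near-identical genes were assigned is not stated.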

Additional observations from a re-analysis of the deposited data

How the results depend on the processing

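RLE, TMM without the 20 most abundant genes, DESeq2 and limma-voom kept the direction and the call of all 34 genes. Counts moved with the scaling. Genes called higher among all tested numbered 6258 with total counts, 8769 with the hepatocyte markers, 6449 on log2(TPM + 1) and 6433 on log2(TPM + 0.1), against 4057 with TMM, and genes called lower 1147, 470, 897 and 897, against 3347. Of the 34, in the same order, 9, 14, 11 and 11 were higher and 9, 3, 7 and 7 lower, with medians of -0.090, 0.19, -0.047 and -0.048. Of the other ER genes, 58, 100, 71 and 71 were higher and 6, 1, 3 and 3 lower. These scalings shift all genes together, and why they differ from TMM was not tested.

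Signs turned in the following cases. With the hepatocyte markers, the changes were Dnajb11 0.12, Dnajc3 0.10, Manf 0.026, Calr 0.40, Canx 0.14, Pdia3 0.21, Pdia4 0.11, Pdia6 0.56, Xbp1 0.56, Atf6 0.26, Ppp1r15a 0.11, Syvn1 0.17, Os9 0.51, Edem1 0.22, Edem3 0.12 and Sec24d 0.48, and outside the 34 genes Ero1b 0.019, Ero1a 0.052, Fam8a1 0.032, Rnf139 0.033, Sec62 0.15, Srp72 0.22, Magt1 0.077, Alb 0.13 and Atf4 0.29. With total counts they were Atf4 0.010, Calr 0.13, Pdia6 0.29, Xbp1 0.28, Os9 0.24 and Sec24d 0.20. On log2(TPM + 1) and log2(TPM + 0.1) they were Atf4 0.057 and 0.058, Calr 0.17 and 0.17, Pdia6 0.33 and 0.33, Xbp1 0.33 and 0.34, Atf6 0.017 and 0.018, Os9 0.28 and 0.28, and Sec24d 0.22 and 0.23.

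Leaving out each library gave 4 to 6 higher and 18 to 20 lower of the 34 genes with a median of -0.48 to -0.39, 3530 to 4104 higher and 2871 to 3416 lower of all genes, and 15 to 25 higher and 36 to 44 lower of the other ER genes. The 4 genes that did not pass and changed sign had ranges of -0.11 to 0.02 for Pdia6, -0.13 to 0.080 for Xbp1, -0.046 to 0.11 for Derl1 and -0.22 to 1.25 for Derl3. With the replicate block, which is not supported by the data as a pairing because same-numbered libraries had correlations of deviations of -0.06, 0.08 and 0.15, 4 of the 34 genes were higher and 19 lower, and Atf6 lost its call (adjusted p = 0.0506). With no filter 5 were higher and 20 lower, and with the stricter filter 5 and 19. Precision is limited by 3 libraries per diet rather than by depth for most of the 34 genes, and Derl3, at 1.55 to 11.4 CPM, is the least certain.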
